A study of Mus musculus with 24 samples.

Results

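Here 8 genes of efferocytosis, the clearance of dying cells by phagocytes, were followed in sorted myeloid cells of the mouse colon. The genes were Mertk, Axl, Gas6, Pros1, Mfge8, Itgb5, Cd36 and Elmo1, chosen by their symbols and matched to the deposited table through the Ensembl identifier without its version. All 8 were found among the 17301 genes of the table, and all 8 passed the filter on low values (a mean of at least 1 RPKM in at least 1 group). RPKM are reads per kilobase of gene length and M reads. The following 4 populations were sorted: F4/80hi MHCIIhi macrophages and F4/80hi MHCIIlow macrophages (MHCIIhi and MHCIIlow below), Ly6Chi MHCII- monocytes, and Ly6G+ neutrophils. Both tissues were sampled, the lamina propria (LP) of the colon in C57BL/6J mice and the colon tumours of ApcMin/+ mice (APC/Min in the labels), whose inherited Apc mutation leads to adenomas. There were 3 libraries for each of the 8 groups, 24 together, made from pools of 13 to 15 mice aged 3 to 4 months. Dextran sodium sulphate (DSS), which injures the colon epithelium, had been given to the tumour-bearing mice. The labels call the LP healthy, whereas the study describes DSS for control mice too, so that the treatment of the LP donors is not settled. Genotype and cell isolation differed with tissue (an EDTA step for LP, DNase I for tumours, and different Percoll steps), and they cannot be told apart from the tumour itself. A pool is numbered with a roman numeral within its tissue.

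Efferocytosis needs receptors that see a dying cell, soluble proteins that bridge the receptor to that cell, and a signal that makes the phagocyte engulf it. Mertk and Axl are receptor tyrosine kinases. Gas6 and protein S (Pros1) bind phosphatidylserine on the dying cell. On the phagocyte Gas6 binds both of these kinases, and protein S binds Mertk. Mfge8 binds phosphatidylserine as well, and bridges it to integrins such as the one that holds the beta 5 chain (Itgb5). Cd36 is a scavenger receptor that binds oxidised lipids and thrombospondin and takes up fatty acids. Elmo1 works with Dock proteins to activate Rac and move the membrane around the prey. Gut macrophages are known for clearing dying epithelial cells and neutrophils without inflammation.

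Between 12.8 and 41.7 M reads per library fell on genes. The libraries followed their sort: the summed RPKM of 4 MHCII genes was 39000 to 45690 in LP MHCIIhi against 876 to 3883 in LP MHCIIlow, and 16670 to 41090 against 2116 to 9853 in tumours. The summed RPKM of 8 macrophage markers lay between 4516 and 7943 in the macrophage groups and between 600 and 1318 in monocytes and neutrophils. Markers of other cell types differed by tissue. The sum of 4 B and plasma cell markers was 155 to 570 RPKM in LP monocytes and 354 to 1281 in LP neutrophils, against 0.0275 to 3.05 and 0.644 to 19.6 in tumours, and it was 10.04 to 223 in LP and 1.25 to 65.4 in tumour macrophages. The sum of 5 dendritic cell markers was 3.66 to 14.2 in LP and 0.0306 to 1.55 in tumour macrophages. The sum of 6 fibroblast markers was 19.6 to 62.0 in LP MHCIIlow and 6.83 to 21.04 in LP MHCIIhi, but 0.181 to 1.17 in all tumour macrophages. The sum of 6 epithelial markers was 79.0 to 250 in tumour monocytes and 124 to 246 in tumour neutrophils, against 15.9 to 139 and 10.2 to 45.9 in LP. In these bulk samples fewer cells of a type and less RNA per cell cannot be told apart. Groups were compared with limma on log2 RPKM, with the spread shared by all 8 groups, and p was adjusted over 12878 genes by the Benjamini-Hochberg method with a threshold of 0.05. A gene past this threshold is called. A permutation test of 3 libraries against 3 cannot give an exact p under 0.1.

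In tumour macrophages the receptor Mertk, the bridging protein Mfge8 and the integrin chain Itgb5 rose in both subsets, and the scavenger receptor Cd36 fell in both. In MHCIIhi macrophages the calls of Itgb5 and Cd36 were close to the threshold (limma adjusted p = 0.0465 and 0.0423). Both were lost when certain single libraries were left out. Axl rose in the MHCIIlow subset. Mfge8 moved most, 6.70-fold in MHCIIhi and 22.7-fold in MHCIIlow macrophages, and Cd36 fell to 0.224 and 0.0723 of its LP level. Of the 8 genes 4 were called in MHCIIhi macrophages, where 19.5% of all genes were, and 5 in MHCIIlow macrophages, where 23.3% were. In monocytes 1 of 8 was called against 9.29% of all genes, and in neutrophils 1 of 8 against 32.2%, and in both it was Mertk. The median difference of the 8 genes between tumour and LP was 0.79 (log2) in MHCIIhi and 1.03 in MHCIIlow macrophages, beside medians of all genes tested of 0.00 and 0.06.

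**Figure D1:**
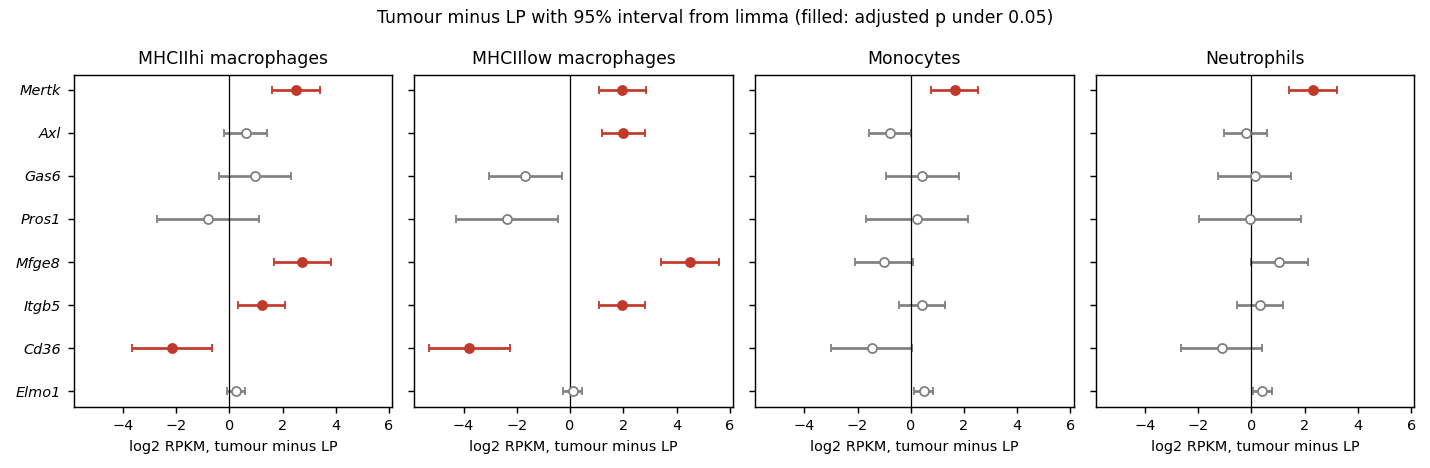
Difference of log2 RPKM between tumour and LP (x axis) for each of the 8 genes (y axis) in the 4 populations, with 95% intervals from limma and filled points for adjusted p under 0.05. Mertk lies to the right of 0 in all 4 populations, Mfge8 and Itgb5 are filled in both macrophage subsets only, and Cd36 is filled on the left in both.

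The genes lie on 6 chromosomes of GRCm38/mm10, and all are protein coding in the GENCODE annotation. Mertk (ENSMUSG00000014361.5) lies on chromosome 2 from 128698956 to 128802894 on the plus strand. Cd36 (ENSMUSG00000002944.11) lies on chromosome 5 from 17781690 to 17888801 on the minus strand. Chromosome 7 holds Axl (ENSMUSG00000002602.12, 25757273 to 25788705, minus) and Mfge8 (ENSMUSG00000030605.11, 79133768 to 79149060, minus). Gas6 (ENSMUSG00000031451.5) lies on chromosome 8 from 13465374 to 13494490 on the minus strand. Elmo1 (ENSMUSG00000041112.11) spans chromosome 13 from 20090596 to 20608353 on the plus strand. Chromosome 16 holds Itgb5 (ENSMUSG00000022817.10, 33829665 to 33949338, plus) and Pros1 (ENSMUSG00000022912.8, 62854307 to 62929346, plus). Some reads could belong to neighbours: 34 exon bases of Gas6 (1.33%) overlap Tmem255b and 403 of Elmo1 (3.20%) overlap Gm32036. Of the 51-base stretches, the length of a read, 7.22% of Itgb5 also occur in Gm38317 and 2.92% of Elmo1 in Gm32036.

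The promoters of the 4 genes that were called in both macrophage subsets are printed here, 250 bases up to the RefSeq start (GRCm38.p6, read along the gene's own strand), since 3 of these genes rose together and 1 fell. Capitals mark matches, on either strand, to any of 10 short motifs: the nuclear receptor half-site AGGTCA, its direct repeats with a gap of 4 bases (LXR) and of 1 base (PPAR), the AP-1 site TGANTCA, the E-box CACGTG, the PU.1 core GAGGAA, the Maf half-site TGCTGA, the CCAAT box CCAAT, the GC box GGGCGG and the TATA box TATAAA. Both repeats contain the half-site.
Mertk, chr2:128698665-128698914, plus strand: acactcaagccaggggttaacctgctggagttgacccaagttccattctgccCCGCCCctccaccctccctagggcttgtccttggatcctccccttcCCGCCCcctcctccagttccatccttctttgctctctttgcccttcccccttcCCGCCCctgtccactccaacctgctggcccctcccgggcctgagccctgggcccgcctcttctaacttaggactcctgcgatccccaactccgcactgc
Mfge8, chr7:79149061-79149310, minus strand: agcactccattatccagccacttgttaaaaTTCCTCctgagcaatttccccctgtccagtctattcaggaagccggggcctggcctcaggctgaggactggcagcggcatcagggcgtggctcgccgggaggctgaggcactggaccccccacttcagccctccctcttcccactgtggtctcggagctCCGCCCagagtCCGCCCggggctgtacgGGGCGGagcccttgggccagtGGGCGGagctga
Itgb5, chr16:33829415-33829664, plus strand: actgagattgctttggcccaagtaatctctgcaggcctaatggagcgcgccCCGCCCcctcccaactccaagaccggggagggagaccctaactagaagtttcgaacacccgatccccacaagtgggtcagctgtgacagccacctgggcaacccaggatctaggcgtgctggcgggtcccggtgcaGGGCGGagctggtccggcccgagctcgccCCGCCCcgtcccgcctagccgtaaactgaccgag
Cd36, chr5:17835897-17836146, minus strand: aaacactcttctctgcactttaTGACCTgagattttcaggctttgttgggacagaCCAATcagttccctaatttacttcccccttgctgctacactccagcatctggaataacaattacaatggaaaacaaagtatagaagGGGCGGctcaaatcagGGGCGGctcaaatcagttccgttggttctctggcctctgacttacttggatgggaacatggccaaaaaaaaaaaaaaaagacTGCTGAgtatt
The 3 promoters of the genes that rose had 63.6% (Mertk), 65.2% (Mfge8) and 65.2% (Itgb5) GC, and that of Cd36 had 43.2%. The median was 52.4% over 32851 such windows. Genes called in neither macrophage subset had 64.4% (Pros1), 54.8% (Gas6), and 61.6% and 43.6% (outer and inner start of Elmo1). High GC was thus not particular to the genes that rose, and a link of GC with direction was not tested. All 4 printed promoters hold the GC box, as did 8 of the 9 windows of the 8 genes (Elmo1 has a pair of starts) and 32.7% of all windows. The Cd36 window alone among the 9 holds the half-site AGGTCA (14.0% of all windows), the CCAAT box (33.8%) and the Maf half-site (16.1%). The Mfge8 window holds the PU.1 core (23.3% of all windows), as does that of Axl. The AP-1 site (6.75% of all windows), the E-box (6.02%) and both repeats (0.0152% for LXR and 0.0335% for PPAR) do not occur in the 9 windows. The TATA box (12.4%) occurs in 1 of them, at the outer start of Elmo1. The Cd36 window lies inside the annotated gene, and the table sums all starts of a gene, so that starts could not be compared.

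Mertk was the 1 gene of the 8 called between tumour and LP in all 4 populations. In MHCIIhi macrophages its RPKM was 11.2, 11.9 and 9.31 in LP (pools III, IV and V) and 63.0, 62.4 and 56.9 in tumours (pools I, V and VII). In MHCIIlow macrophages it was 8.95, 13.4 and 9.18 in LP (pools II, III and IV) and 50.4, 41.1 and 31.6 in tumours (pools I, V and VII). LP and tumour libraries did not overlap in either subset. On the log2 scale the rise was 2.50 (standard error 0.43, limma adjusted p = 0.000264) in MHCIIhi and 1.96 (standard error 0.43, limma adjusted p = 0.00189) in MHCIIlow macrophages. Monocytes held far less: 0.433, 0.557 and 1.06 RPKM in LP (pools III, IV and V) and 1.42, 2.00 and 2.81 in tumours (pools I, II and V), a log2 difference of 1.66 (standard error 0.43, limma adjusted p = 0.0167). The call in monocytes was lost without LP monocyte pool III (adjusted p = 0.0903 by limma), pool IV (0.0532) or tumour monocyte pool V (0.0805), and with the libraries compared alone (0.105). In neutrophils Mertk rested on 6 to 26 reads in LP (0.0600 to 0.281 RPKM) and 21 to 28 reads in tumours (0.501 to 0.844 RPKM), a log2 difference of 2.31 (limma adjusted p = 0.000359). This last call was lost with voom on whole reads (adjusted p = 0.0818), on the log2(RPKM + 1) scale (adjusted p = 0.0566) and with the libraries compared alone (adjusted p = 0.0875). The 8 macrophage markers moved both ways between LP and tumour. In monocytes the means of 4 were higher in tumours (Adgre1 60.9 to 88.9, Csf1r 417 to 559, C1qa 3.75 to 6.68 and C1qc 3.95 to 4.72 RPKM) and those of 4 were lower (C1qb 19.9 to 16.5, Fcgr1 210.1 to 85.9, Cd68 439 to 390.4 and Mrc1 20.1 to 4.50 RPKM). In neutrophils 4 were higher (Adgre1 28.02 to 52.2, Csf1r, C1qa and C1qb) and 4 lower (C1qc, Fcgr1, Cd68 and Mrc1). Their sum was 1015 to 1318 RPKM in LP and 1084 to 1229 in tumour monocytes, and 727.5 to 797 in LP and 600.2 to 667 in tumour neutrophils. The part of macrophage or epithelial transcripts in the Mertk values of monocytes and neutrophils was not tested. The groups ran in the order tumour MHCIIhi, tumour MHCIIlow, LP MHCIIhi, LP MHCIIlow, tumour monocytes, LP monocytes, tumour neutrophils and LP neutrophils. In that order the LP macrophage subsets overlapped, as did LP monocytes and tumour neutrophils, and the other neighbours did not.

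Axl differed between the LP subsets. Its RPKM was 181, 166 and 155 in LP MHCIIhi macrophages (pools III, IV and V) but 22.0, 60.8 and 47.0 in LP MHCIIlow macrophages (pools II, III and IV). The MHCIIlow level was lower by 2.07 on the log2 scale (difference of -2.07, standard error 0.38, limma adjusted p = 0.00179), and Axl was the only 1 of the 8 genes called between the LP subsets, where 7.7% of all genes were called. In tumours both subsets were high, with 233, 267 and 268 RPKM in MHCIIhi and 139, 187 and 157 in MHCIIlow macrophages. Axl rose in tumour over LP MHCIIlow macrophages by 2.01 (log2, standard error 0.38, limma adjusted p = 0.000648). In MHCIIhi macrophages the difference was 0.61 (95% interval -0.19 to 1.41, limma adjusted p = 0.311), although the libraries did not overlap. With the spread of these 6 libraries alone, that difference had a limma adjusted p of 0.0155. Monocytes held 5.04 to 9.88 RPKM in LP and 2.11 to 6.51 in tumours, and neutrophils 1.60 to 3.59 and 1.98 to 2.54, and both pairs overlapped (log2 differences of -0.78 and -0.22, limma adjusted p = 0.239 and 0.702).

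**Figure D2:**
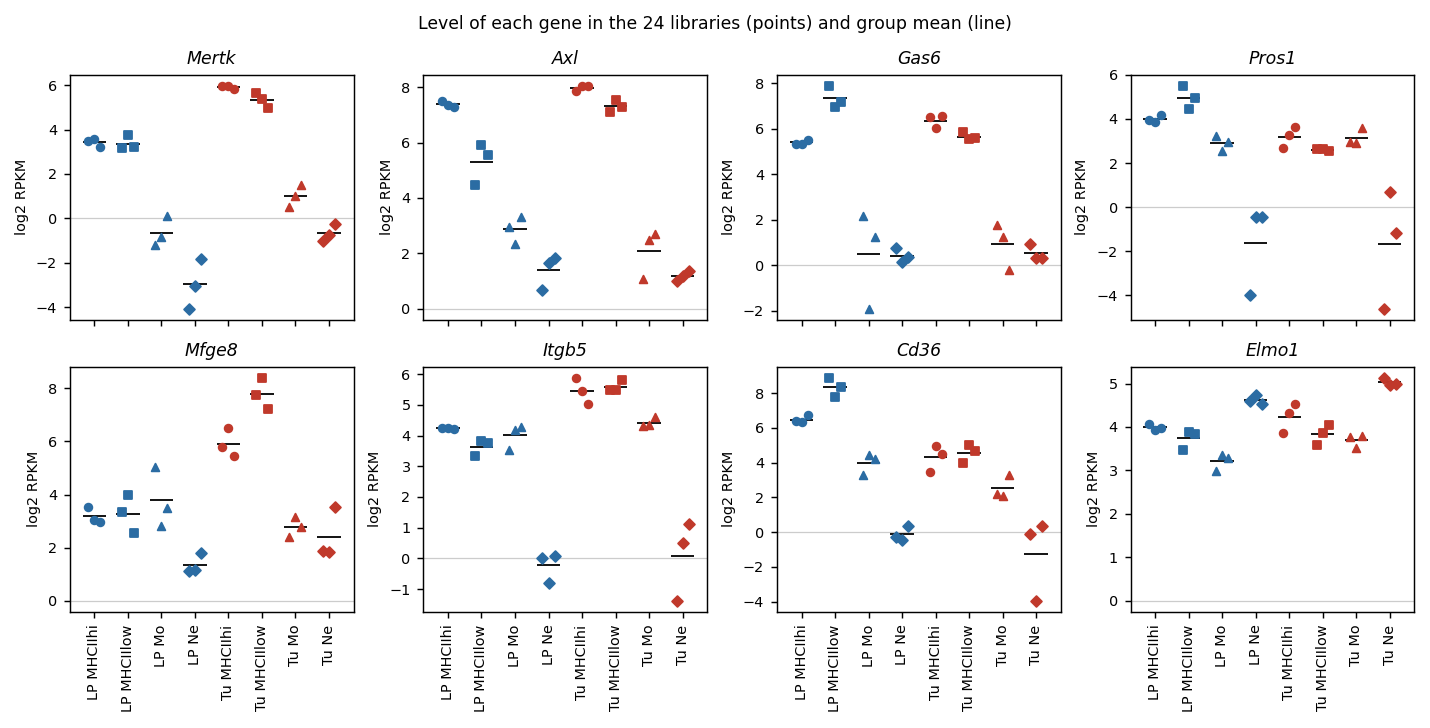
Log2 RPKM (y axis) of each gene in the 24 libraries (points) with the mean of each group (line), for LP (blue) and tumour (red) macrophages, monocytes (Mo) and neutrophils (Ne). Mertk, Mfge8 and Itgb5 are higher in tumour than LP macrophages, Cd36 is lower, and Elmo1 is highest in neutrophils.

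Gas6, a ligand of Axl and Mertk, was highest in LP MHCIIlow macrophages and moved in opposite directions in the subsets. Its RPKM was 237, 123 and 144 in LP MHCIIlow (pools II, III and IV) against 57.0, 46.2 and 48.2 in tumour MHCIIlow macrophages. In MHCIIhi macrophages it was 40.4, 40.7 and 45.4 in LP against 90.02, 65.1 and 94.2 in tumours. The libraries overlapped in neither subset. The model gave a difference of -1.68 (standard error 0.66, limma adjusted p = 0.071) in MHCIIlow and 0.96 (standard error 0.66, limma adjusted p = 0.354) in MHCIIhi macrophages, so that Gas6 was called in neither. The SD of Gas6 (log2) was largest in LP monocytes, 2.14 against 0.09 to 0.50 in the macrophage groups. The 3 LP monocyte libraries held 294, 30 and 222 reads (4.51, 0.266 and 2.36 RPKM in pools III, IV and V). With the libraries compared alone, the limma adjusted p was 0.0161 in MHCIIlow and 0.0148 in MHCIIhi macrophages. With voom, which weights low counts down, it was 4.21e-05 and 0.0102. Between the subsets, the tumour effect on Gas6 differed by -2.65 (standard error 0.93, limma adjusted p = 0.189), and with voom it was called (adjusted p = 0.00048).

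Pros1, the other ligand of Mertk, was lower in tumour macrophages without being called. In MHCIIlow macrophages it was 45.5, 21.7 and 30.9 RPKM in LP (pools II, III and IV) and 6.20, 6.23 and 5.75 in tumours, a difference of -2.36 (log2, standard error 0.92, limma adjusted p = 0.0703). In MHCIIhi macrophages it was 15.5, 14.3 and 18.4 in LP and 6.32, 9.65 and 12.4 in tumours, a difference of -0.81 (limma adjusted p = 0.617). The libraries of LP and tumour did not overlap in either subset. The SD of Pros1 (log2) was largest in neutrophils, 2.04 in LP and 2.69 in tumours against 0.06 to 0.54 in the macrophage groups. In neutrophils Pros1 ran from 6 to 65 reads in LP and from 2 to 54 in tumours. In MHCIIlow macrophages Pros1 was called with the libraries compared alone (limma adjusted p = 0.00804), on the log2(RPKM + 1) scale (1.52e-05) and with voom (9.1e-06). Monocytes held 5.82 to 9.39 RPKM in LP and 7.51 to 11.97 in tumours, and tumour MHCIIlow macrophages overlapped with LP monocytes.

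The sum of fibroblast markers in LP MHCIIlow macrophages moved with the high Gas6, Pros1 and Cd36 of that group when set against tumour macrophages. Within LP MHCIIlow macrophages the order was the reverse. Pool II had the least fibroblast signal, 19.6 RPKM over 6 markers against 62.0 in pool III and 58.9 in pool IV. The same pool II had the highest Gas6, Pros1 and Cd36 of the 3, and the lowest Mertk, Axl and Itgb5. Pool II also had the smallest sum of 4 MHCII genes, 876 RPKM against 3883 in pool III and 2556 in pool IV. Mertk, Axl and Itgb5 ran in the order of the MHCII sum, and Gas6, Pros1 and Cd36 in the reverse order. The part of MHCIIhi cells in the LP MHCIIlow values was not tested. In LP MHCIIlow macrophages the mean of Dcn, a fibroblast proteoglycan, was 28.5 RPKM and that of Gas6 was 168. The ratio of these genes in fibroblasts is not known here. The part of fibroblast transcripts in the differences between tissues was not tested.

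**Figure D3:**
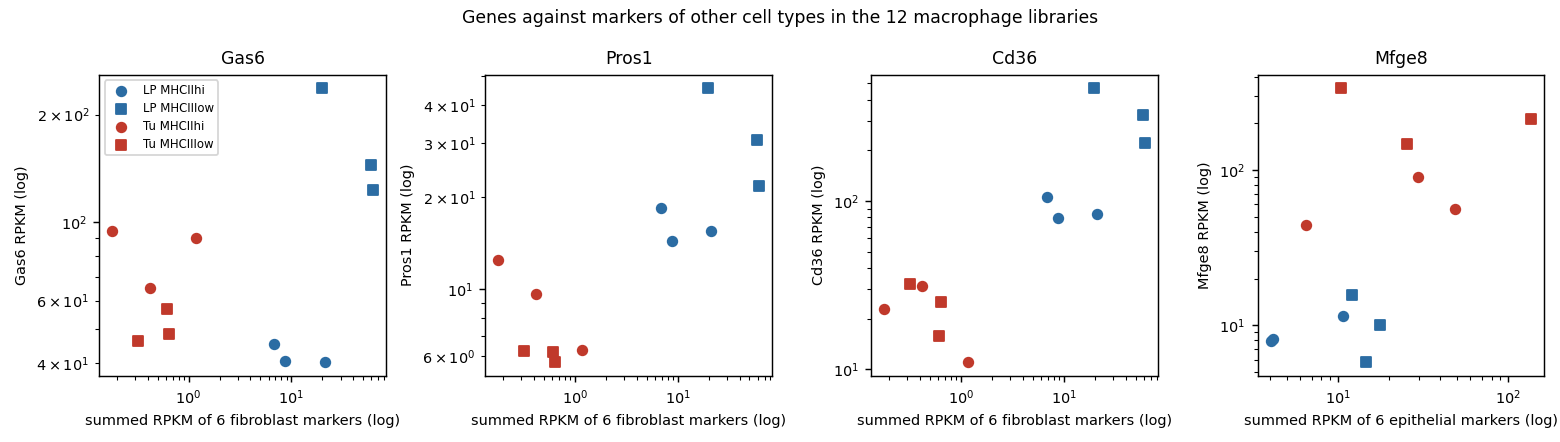
RPKM of Gas6, Pros1 and Cd36 against the summed RPKM of 6 fibroblast markers, and of Mfge8 against that of 6 epithelial markers, in the 12 macrophage libraries (log axes, 1 point per library). The LP MHCIIlow library with the lowest fibroblast sum has the highest Gas6, Pros1 and Cd36 of its group. The library with the highest Mfge8 (337 RPKM) has an epithelial sum of 10.4. Among tumour MHCIIhi libraries, the one with the lowest Mfge8 has the lowest epithelial sum (6.485).

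Mfge8, the bridging protein for integrins, rose most of the 8 genes and was highest in tumour MHCIIlow macrophages. Its RPKM was 215, 337 and 148 in tumour MHCIIlow macrophages (pools I, V and VII) against 10.0, 15.7 and 5.80 in LP (pools II, III and IV). In MHCIIhi macrophages it was 56.0, 90.2 and 44.2 in tumours against 11.5, 8.16 and 7.88 in LP. No library overlapped between the tissues. The log2 rise was 4.50 (standard error 0.51, limma adjusted p = 2.26e-06) in MHCIIlow and 2.74 (standard error 0.51, limma adjusted p = 0.000671) in MHCIIhi macrophages. The tumour MHCIIlow library with the most Mfge8 (pool V) had the smallest sum of epithelial markers of the 3. It was 10.4 RPKM there, against 137 in pool I and 25.4 in pool VII. In LP macrophages the epithelial sum was 4.02 to 10.65 RPKM (MHCIIhi) and 12.2 to 17.7 (MHCIIlow). In tumour MHCIIhi macrophages that sum was 48.5, 29.5 and 6.485 RPKM in pools I, V and VII. Pool VII was there the lowest in both Mfge8 and the epithelial sum. In LP monocytes the order of both was the same: Mfge8 was 33.1, 7.03 and 11.2 RPKM and the epithelial sum 139, 15.9 and 57.7 in pools III, IV and V. Tumour monocytes had more epithelial signal (79.0 to 250 RPKM) and 5.21 to 8.99 RPKM of Mfge8, and the difference from LP was -1.005 (limma adjusted p = 0.259). Neutrophils held 2.17 to 3.47 RPKM in LP and 3.59 to 11.5 in tumours (log2 difference 1.05, limma adjusted p = 0.128). The part of epithelial transcripts in the Mfge8 values was not tested.

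Itgb5, the integrin chain, was higher in both tumour subsets. In LP MHCIIhi macrophages it stood at 19.0, 19.1 and 18.7 RPKM, and in tumour MHCIIhi macrophages at 58.9, 43.5 and 32.4 (pools I, V and VII). In MHCIIlow macrophages it was 10.2, 14.1 and 13.6 in LP and 44.7, 45.0 and 56.2 in tumours. Tumour libraries lay above LP libraries in both subsets. The log2 rise was 1.95 (standard error 0.41, limma adjusted p = 0.00162) in MHCIIlow and 1.21 (standard error 0.41, limma adjusted p = 0.0465) in MHCIIhi macrophages. The call in MHCIIhi macrophages was close to the threshold and was lost without LP pool III, IV or V (limma adjusted p = 0.101, 0.1 and 0.105) or tumour pool I or V (0.167 and 0.0931), without the filter (0.0561) and with libraries centred on their median (0.0603). Monocytes held as much as LP macrophages, 11.6 to 19.6 RPKM in LP and 19.9 to 24.1 in tumours, without a call between tissues (log2 difference 0.41, limma adjusted p = 0.636). In neutrophils Itgb5 was at 0.578 to 1.06 RPKM in LP and 0.384 to 2.17 in tumours. Without tumour neutrophil pool I (16 reads) the neutrophil difference of 0.32 (limma adjusted p = 0.599) became 1.05 (limma adjusted p = 0.00952).

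Cd36 was the 1 gene of the 8 that was called lower in tumour macrophages. Its RPKM was 469, 221 and 323 in LP MHCIIlow (pools II, III and IV) and 15.8, 32.0 and 25.1 in tumour MHCIIlow macrophages. In MHCIIhi macrophages it was 83.4, 79.3 and 106 in LP and 11.1, 31.3 and 22.7 in tumours. All LP macrophage libraries lay above all tumour macrophage libraries. The log2 difference was -3.79 (standard error 0.73, limma adjusted p = 0.000657) in MHCIIlow and -2.16 (standard error 0.73, limma adjusted p = 0.0423) in MHCIIhi macrophages. The MHCIIhi call was lost without LP pool III, IV or V (limma adjusted p = 0.0871, 0.0827 and 0.118) or tumour pool I or VII (0.163 and 0.0802). Monocytes held 9.78, 21.6 and 18.4 RPKM in LP and 4.55, 4.27 and 9.63 in tumours, which did not overlap (log2 difference -1.46, limma adjusted p = 0.247, or 0.0362 with voom). Neutrophils held 0.741 to 1.27 RPKM in LP and 0.0648 to 1.26 in tumours, which overlapped. Platelets and endothelial cells express Cd36. The sum of 4 platelet markers was 646 to 680 RPKM in LP MHCIIlow and 218 to 299 in LP MHCIIhi macrophages. In tumours it was 221 to 484 RPKM in MHCIIlow and 131 to 174 in MHCIIhi macrophages. Like Cd36, the sum was highest in LP MHCIIlow macrophages, and there in pool II. In both tumour subsets pool I had the highest sum (484 and 174 RPKM) but the lowest Cd36. In LP MHCIIlow macrophages most of the sum was Pf4 (a mean of 631 RPKM), with Ppbp, Gp9 and Itga2b at 26.6, 0.501 and 0.115. In tumour MHCIIlow macrophages Pf4 was lower, at 225 RPKM, and Ppbp higher, at 120. In MHCIIhi macrophages Pf4 was at 238 RPKM in LP and 145 in tumours, and Ppbp at 16.1 and 13.1. Of 5 endothelial markers, Cdh5, Kdr, Tek and Emcn had means of at most 0.361 RPKM in each macrophage group. The fifth, Pecam1, which leukocytes also express, was at 5.13 in LP MHCIIlow against 14.2 to 16.8 in the other macrophage groups. The part of platelet transcripts in the Cd36 values was not tested.

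Elmo1, the engulfment adaptor, was the gene least tied to macrophages. It was highest in neutrophils, with 24.3, 26.8 and 22.95 RPKM in LP and 35.02, 31.4 and 31.5 in tumours, and lowest in LP monocytes, with 7.96, 10.1 and 9.75. The macrophage means lay between, with libraries at 11.1 to 16.9 RPKM in LP and 11.99 to 23.01 in tumours. The ratio of its highest to its lowest group mean was 3.52, against 393 for Mertk and 450 for Cd36. The tumour difference was 0.25 (95% interval -0.10 to 0.59) in MHCIIhi and 0.10 (-0.25 to 0.45) in MHCIIlow macrophages on the log2 scale, with overlapping libraries. In neutrophils (0.41, limma adjusted p = 0.0696) and monocytes (0.49, limma adjusted p = 0.0763) tumour libraries lay above LP libraries without passing the threshold. With libraries centred on their median both were called (limma adjusted p = 0.0083 and 0.0465). That centring moved the median of all genes between tumour and LP neutrophils from -0.12 to 0.12.

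RPKM are scaled by gene length, so that levels could be set side by side between genes within a library. Axl exceeded Mertk 14.0- to 16.7-fold in LP MHCIIhi macrophages, but 2.46- to 5.12-fold in LP MHCIIlow, 3.71- to 4.70-fold in tumour MHCIIhi and 2.76- to 4.95-fold in tumour MHCIIlow macrophages. Among the macrophage groups, LP MHCIIhi did not overlap with the other 3 in this ratio. Gas6 exceeded Pros1 2.47- to 2.84-fold in LP MHCIIhi and 4.67- to 5.66-fold in LP MHCIIlow macrophages, and at least 6.75-fold in every tumour macrophage library. In monocytes Pros1 was the larger, and Gas6 stood at 0.0457 to 0.480 of Pros1. Mfge8 was 0.0180 to 0.139 of Cd36 in all LP macrophage libraries and 1.94 to 13.6 times Cd36 in all tumour macrophage libraries. These ratios are given as descriptions, without a test.

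**Figure D4:**
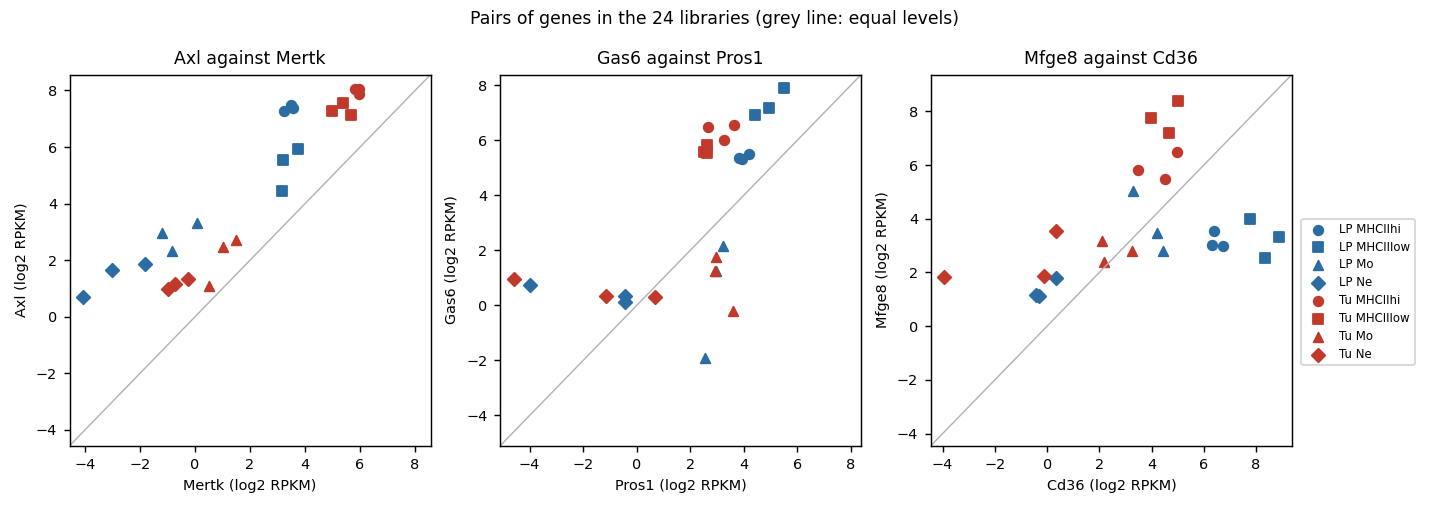
Log2 RPKM of Axl against Mertk, Gas6 against Pros1 and Mfge8 against Cd36 in the 24 libraries (1 point each, blue for LP and red for tumour, with a grey line at equal levels). LP and tumour macrophages lie on opposite sides of the line for Mfge8 and Cd36.

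Macrophages, as the mean of both subsets, were set against monocytes of the same tissue to see which of the genes are higher in macrophages. In LP 5 of 8 genes were higher in macrophages (29.5% of all genes were called in either direction), namely Mertk, Axl, Gas6, Cd36 and Elmo1. In tumours 6 of 8 were higher (38.3% of all genes called), namely Mertk, Axl, Gas6, Mfge8, Itgb5 and Cd36. The largest difference in LP was that of Gas6, 5.86 on the log2 scale (standard error 0.57, limma adjusted p = 1.56e-07), which became 6.70 without LP monocyte pool III and 4.66 without pool IV. In tumours it was that of Axl, 5.57 (standard error 0.33, limma adjusted p = 8.27e-11). Mertk was higher by 4.05 in LP (limma adjusted p = 6.88e-08) and 4.63 in tumours (limma adjusted p = 4.57e-09). Mfge8 was not higher in LP macrophages than in LP monocytes (-0.55, 95% interval -1.48 to 0.38) but by 4.08 in tumours (limma adjusted p = 3.6e-07). In tumours the calls of Itgb5 (1.11, limma adjusted p = 0.0195) and Cd36 (1.91, limma adjusted p = 0.0212) were lost without tumour monocyte pool I (0.0692 and 0.085) or pool II (0.0644 and 0.0895). With the pool as a fixed replicate block the Cd36 difference was 1.06 (limma adjusted p = 0.119). Pros1 was not called in LP (1.57, limma adjusted p = 0.152) but was with the libraries compared alone (0.00207) and with voom (8.72e-05), and in tumours it overlapped (-0.25). Itgb5 overlapped in LP (-0.06). Elmo1 (0.34, limma adjusted p = 0.0684) was called in tumours without MHCIIhi pool I (0.0147) or MHCIIlow pool I (0.0354).

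Monocytes exceeded neutrophils in most of the genes. In LP 7 of 8 genes were called, beside 54.5% of all genes, with Elmo1 the only 1 lower in monocytes (-1.42, limma adjusted p = 6.43e-07). In tumours 6 of 8 were called, beside 58.1%, again with Elmo1 lower (-1.34, limma adjusted p = 1.1e-06). The median of all genes was itself shifted by 0.24 in LP and 0.36 in tumours. Itgb5 was higher in monocytes by 4.23 in LP (standard error 0.41, limma adjusted p = 5.08e-08) and by 4.33 in tumours (standard error 0.41, limma adjusted p = 3.07e-08), or by 3.597 without tumour neutrophil pool I. Pros1 was higher by 4.53 in LP and 4.83 in tumours. These differences rest on few neutrophil reads: for Pros1 they were 3.35 and 5.13 without LP neutrophil pool III or V, and 3.38 and 6.02 without tumour neutrophil pool I (2 reads) or II. Cd36 was higher by 4.10 in LP and 3.76 in tumours, the latter 2.41 without tumour neutrophil pool II (2 reads) and 4.55 without pool V. Mfge8 was higher in LP monocytes by 2.42, or 1.79 without LP monocyte pool III. The Axl call in tumours (0.92, limma adjusted p = 0.0463) was lost without tumour monocyte pool II or V (0.166 and 0.222) or neutrophil pool I, II or V (0.116, 0.085 and 0.0589). With libraries centred on their median its difference was 0.47 (limma adjusted p = 0.301), and the call was also lost with voom (0.33), with the libraries compared alone (0.162), on the log2(RPKM + 1) scale (0.06) and without the filter (0.055). Mertk was higher in monocytes by 2.32 in LP and 1.66 in tumours (limma adjusted p = 0.000123 and 0.00234), and Axl by 1.48 in LP (0.0029). With the libraries compared alone, Mertk in LP (limma adjusted p = 0.0573) and Cd36 in tumours (0.0563) were not called. In tumours Gas6 (0.40) and Mfge8 (0.37) overlapped without a call. Gas6 did not differ past the threshold in LP (0.10, limma adjusted p = 0.917) but did without LP monocyte pool IV (1.30, limma adjusted p = 0.0148).

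The subsets of macrophages were also compared within each tissue. By limma 0 of the 8 were called between tumour MHCIIlow and MHCIIhi macrophages, beside 1.13% of all genes by the same fit. An unadjusted p under 0.05 was found for 2 (Mfge8 and Elmo1), and voom called 1 (Mfge8). The shares of all genes with such a p, or called by voom, are not given here. Mfge8 was 1.86 higher in the MHCIIlow subset (standard error 0.51, limma adjusted p = 0.0866) with no overlap of libraries. In tumours, Mertk (-0.59), Axl (-0.68), Gas6 (-0.71) and Pros1 (-0.59) lay lower in every MHCIIlow library, with limma adjusted p from 0.578 to 0.961, while Itgb5 (0.15), Cd36 (0.23) and Elmo1 (-0.40) overlapped. Mfge8 was called with the pool as a fixed replicate block (limma adjusted p = 0.0267). In LP, besides Axl, Gas6 (1.94, limma adjusted p = 0.0806), Cd36 (1.86, limma adjusted p = 0.139) and Pros1 (0.97, limma adjusted p = 0.648) had higher values in every MHCIIlow library than in every MHCIIhi library, and Itgb5 (-0.60, limma adjusted p = 0.475) and Elmo1 (-0.26, limma adjusted p = 0.438) had lower ones. Mertk (-0.06) and Mfge8 (0.10) overlapped between the LP subsets. The share of all genes whose libraries did not overlap was not counted, here or in the other comparisons. Gas6 and Cd36 were called there with the libraries compared alone (limma adjusted p = 0.0242 and 0.0349).

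The tumour effect itself was compared between populations. Between the macrophage subsets 0 of the 8 genes were called by limma, beside 1.46% of all genes by the same fit. An unadjusted p under 0.05 was found for 3 (Axl, Gas6 and Mfge8). The share of all genes with such a p is not given here. By voom 3 were called (Axl, Gas6 and Pros1), beside 539 of the 12878 genes. The difference of the Mfge8 effect (MHCIIlow minus MHCIIhi) was 1.76 (95% interval 0.24 to 3.28, limma adjusted p = 0.291), and that of Axl was 1.40 (95% interval 0.26 to 2.53, limma adjusted p = 0.253). For the contrast of macrophages and monocytes, the mean effect of both macrophage subsets was used. Here 2 of 8 were called, beside 9.19% of all genes, both with a higher mean effect in macrophages. These were Mfge8 (4.63, standard error 0.63, limma adjusted p = 7.27e-05, or 3.996 without LP monocyte pool III) and Axl (2.09, standard error 0.47, limma adjusted p = 0.00652). The Axl effect itself was called in MHCIIlow macrophages only (2.01). It was 0.61 in MHCIIhi macrophages and -0.78 in monocytes, without a call (limma adjusted p = 0.311 and 0.239). The other 5 differences between macrophages and monocytes ran from -1.82 (Pros1, limma adjusted p = 0.38) to 1.17 (Itgb5, limma adjusted p = 0.174). For Mertk, which was called in both cell types, the difference of effects was 0.58 (95% interval -0.51 to 1.66, limma adjusted p = 0.591).

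Other genes of efferocytosis were read from lists that do not hold the 8 genes. The counts called in each list stand beside 19.5% of all genes called in MHCIIhi and 23.3% in MHCIIlow macrophages, in either direction, and nothing particular to a list is read from them. Among 17 tested receptors for apoptotic cells, 2 were higher and 4 lower in tumour MHCIIhi macrophages, and 3 were higher and 4 lower in the MHCIIlow subset. Stab1, a scavenger receptor that binds phosphatidylserine, rose from 25.2 to 96.9 RPKM in MHCIIhi macrophages (1.94 on the log2 scale, limma adjusted p = 1.46e-05). Cd300lf, another phosphatidylserine receptor, rose in both subsets. It went from 1.78 to 14.7 RPKM in MHCIIlow macrophages (3.34, limma adjusted p = 1.22e-06). In MHCIIhi macrophages Cd300lf went from 6.68 to 17.5 RPKM (1.43, limma adjusted p = 0.0077). Its relative Cd300lb fell in both, from 82.0 to 19.6 and from 72.9 to 20.7 RPKM. The list's median difference was -0.57 in MHCIIhi and -0.07 in MHCIIlow macrophages.

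Of 9 other bridging proteins and opsonins 3 were lower in tumour MHCIIhi macrophages (beside 19.5% of all genes called): Anxa1 (from 141 to 26.5 RPKM, limma adjusted p = 0.000234), galectin 3 (Lgals3, from 781 to 175 RPKM) and thrombospondin 1 (Thbs1, from 1255 to 364 RPKM), a ligand of Cd36. In MHCIIlow macrophages 1 was higher, complement C3 (from 20.3 to 53.1 RPKM), and 3 were lower: C4b (from 25.8 to 1.02 RPKM), Anxa1 and Lgals3. C4b is also made by fibroblasts, whose markers were near 0 in tumour macrophages. The part of fibroblast transcripts in the C4b values was not tested. Of 17 genes of engulfment signalling 2 were higher and 4 lower in MHCIIhi and 3 higher and 3 lower in MHCIIlow macrophages, beside 19.5% and 23.3% of all genes called. Plcg2 rose in both subsets (0.74 and 1.33 on the log2 scale), as well as in monocytes (0.83) and neutrophils (1.94), and Crk, an adaptor of the Elmo1 and Dock pathway, fell in both macrophage subsets (by -0.86 and -1.11).

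In the remaining lists too, the counts stand beside 19.5% of all genes called in MHCIIhi and 23.3% in MHCIIlow macrophages. Of 19 genes of phagosome maturation and digestion, 1 was higher and 2 lower in MHCIIhi and 3 higher and 1 lower in MHCIIlow macrophages, no larger a share than that of all genes. Rab7, a small GTPase of late endosomes, fell from 148 to 108 RPKM and from 168 to 106 RPKM. Of 14 genes for lipid sensing and cholesterol export 2 were higher and 1 lower in MHCIIhi, and 2 were higher in MHCIIlow macrophages. Ucp2, a mitochondrial carrier, rose from 126 to 223 RPKM and from 86.1 to 211 RPKM. Of 7 find-me signals and receptors 1 was higher, the fractalkine receptor Cx3cr1 (from 20.9 to 280 RPKM in MHCIIhi and from 21.6 to 187 in MHCIIlow macrophages), and the nucleotide receptor P2ry6 was among 2 and 3 that fell. Of 8 do-not-eat-me signals and regulators of Mertk shedding 3 were higher and 1 lower in MHCIIhi and 4 higher and 1 lower in MHCIIlow macrophages. They included Sirpa, the receptor for Cd47 (from 93.3 to 204 RPKM and from 58.3 to 176 RPKM). Adam10, a sheddase, rose from 20.7 to 40.7 RPKM in MHCIIhi macrophages. Its mean over both subsets was 20.02 RPKM in LP and 41.05 in tumours, so the rise was not particular to MHCIIhi macrophages.

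**Figure D5:**
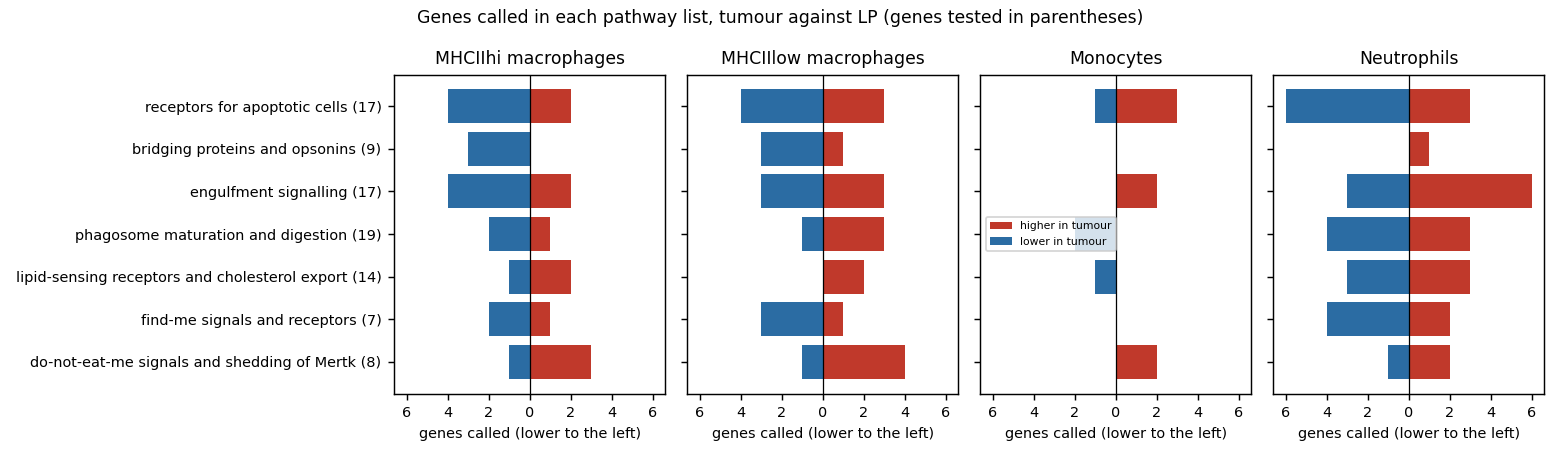
Number of genes called between tumour and LP in each pathway list, with genes higher in tumour to the right and lower to the left, for the 4 populations (genes tested in parentheses). No list moves wholly to 1 side in macrophages except the bridging proteins in MHCIIhi macrophages, with 3 of 9 lower, and lipid sensing in MHCIIlow macrophages, with 2 of 14 higher.

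The patterns over all 24 libraries were compared with those of 5293 genes that reached a group mean of 10 RPKM. These correlations describe libraries that share 8 groups, pools and scaling, and no p is given. Axl was most like the collagenase Mmp13 (Pearson r = 0.971), Olfml3 (0.966) and Zmynd15 (0.963). Mertk was most like Abcg3 (0.963), Slc25a10 (0.963) and the clathrin adaptor Ap1b1 (0.9625). Gas6 was most like selenoprotein P (Selenop, 0.949), the complement subunit C1qb (0.947) and the adhesion molecule Vcam1 (0.945). Pros1 was most like the C3a receptor C3ar1 (0.929), Kpna3 (0.920) and Scpep1 (0.911). Genes with a pattern like that of Mfge8 included Dcakd (0.891) and the replication helicase subunit Mcm5 (0.881). Itgb5 was most like Nt5c (0.963), Ccdc50 (0.961) and Ppp5c (0.958). Cd36 was most like neuropilin 2 (Nrp2, 0.957), the mitochondrial chaperonin Hspd1 (0.949) and Man1a (0.940). Genes with a pattern like that of Elmo1 included the RNA-binding protein Celf2 (0.941) and Rcsd1 (0.931). Among the 8 genes themselves the pair most alike was Mertk and Axl (Pearson r = 0.922, Spearman rho = 0.893), and Elmo1 was negative with each of the other 7, from -0.214 with Gas6 to -0.698 with Pros1.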

How the data were processed

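RNA of sorted cells was amplified by the authors with a modified SMARTSeq v2 protocol, which does not keep the strand, and sequenced as paired ends of 51 bases. Per the methods and the submitters' processing notes, reads were aligned to GRCm38/mm10 with STAR 2.3, counted on GENCODE genes with featureCounts 1.5 and processed with edgeR. The authors had removed genes that averaged under 10 reads in every population. The deposited values are log2 RPKM with a prior of 0.25 reads and scaled library sizes, 0.466 to 1.51 times the reads on genes. All 24 columns were used. Whole reads were recovered by finding, for each gene, the length that turned its values into whole reads: 415224 of 415224 values came out whole within 0.001 reads, with 1 length per gene. They served for depth (12.8 to 41.7 M reads per library) and for voom.

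The 12 comparisons were contrasts of 1 model of 8 group means, fitted in R 4.3.3 by limma (version 3.58.1, trended eBayes) to the 12878 genes whose mean reached 1 RPKM in some group. Within a comparison, p was adjusted by the Benjamini-Hochberg method. The fit was tested on simulated data. The 8 genes, lists, motifs and tests were chosen with earlier results of these data known. All 8 genes are named in the comparisons; genes of the lists were named if among the 3 largest rises or falls called, with at least 10 RPKM in the higher group. Patterns were compared among such genes without predicted genes and antigen receptor segments. The 3 most alike are named for each gene, except that some are not reported here. Gene symbols came from GENCODE M21 (17190 of 17301 identifiers matched) and promoters from RefSeq (GRCm38.p6), where all 8 genes matched. The labels give the pool number as a donor, and libraries of a tissue with the same number were treated as pairs on that ground alone, since the sources used here do not state that they came from the same pooled mice. Over 29 such pairs, deviations from group means correlated with r from -0.0661 to 0.255 (median 0.0169). Alternatives were log2(RPKM + 1), no filter, a filter at 5 RPKM, libraries centred on their median, only the libraries compared, the pool as a random or fixed block, voom on whole reads, and each library left out.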

Additional observations from a re-analysis of the deposited data

Results flagged for a closer look

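The tumour effect of Mfge8 differed between macrophages and monocytes by 4.63 on the log2 scale, by the interaction contrast of limma (adjusted p = 7.27e-05). That contrast is the mean effect of both macrophage subsets minus the effect in monocytes. All 6 tumour macrophage libraries lay above all 6 LP macrophage libraries, while tumour and LP monocytes overlapped. The value was 3.996 without LP monocyte pool III, in which epithelial markers and Mfge8 were both highest among LP monocytes. The tumour effect of Axl differed in the same contrast by 2.09 (limma adjusted p = 0.00652), with overlapping monocyte libraries. Taken singly, it was called in MHCIIlow (2.01) but not in MHCIIhi macrophages (0.61, limma adjusted p = 0.311).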

How the results depend on the processing

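Over the 12 comparisons, no called difference of the 8 genes changed direction under the alternatives run. Of 1488 values of single genes, 1407 kept their side of the threshold, 45 gained a call and 36 lost it. Filtering at a mean of 5 RPKM and the random replicate block (pool within tissue) changed no call of the 8 genes. The fixed replicate block changed the 2 named in the report. In tumour against LP monocytes the 1 gene called became 2 with log2(RPKM + 1), 2 with centred libraries, 0 with only the libraries compared and 2 with voom, and in neutrophils it became 0, 2, 1 and 0. Between LP subsets 1 became 3, 1, 3 and 4, and between tumour subsets 0 became 1 with log2(RPKM + 1), 1 with the fixed replicate block and 1 with voom. For the difference of tumour effects between subsets, 0 became 1 with log2(RPKM + 1), 1 with the libraries compared and 3 with voom, and between macrophages and monocytes 2 became 6, 4 and 4. Leaving out 1 library each gave 2 to 3 called genes for tumour against LP MHCIIhi macrophages, 0 to 1 for monocytes and 1 to 2 for neutrophils. The causes were not tested; fits without a library hold fewer samples. Counts over all genes moved over 1.5 times too: 991 to 1840 (voom) between LP subsets, 146 to 4 (libraries compared) or 304 (fixed block) between tumour subsets, 188 to 87 or 539 for the difference between subsets, 1183 to 1902 between macrophages and monocytes, 2511 to 3797 in MHCIIhi macrophages and 4142 to 2366 in neutrophils. Centring moved the share of higher among the called genes from 40.8% to 57.05% in tumour against LP neutrophils, from 59.97% to 46.93% in tumour monocytes against neutrophils and from 38.63% to 26.3% for the effect in macrophages minus monocytes. Few reads limit the neutrophil values, with 2 for Pros1 or Cd36 in single libraries, although neutrophil libraries held 15.9 to 37.9 M reads on genes.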
